A study of Apostichopus japonicus with 9 samples.

Results

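The oxidative phosphorylation genes of the sea cucumber body wall were examined as a set of 63 genes, out of 53665 in the expression table. A gene was a member when its KEGG column named pathway 00190 and not the lysosome pathway, and when its FPKM was above 0 in at least 2 libraries. FPKM counts sequenced fragments relative to transcript length and library size, so levels can be compared between genes of one library, while the comparison between libraries depends on the scaling, as given below. The pathway label stood on 74 genes, of which 11 also carried the lysosome label and were kept apart, and no gene was lost to the FPKM minimum. By their descriptions 24 members belonged to complex I, 3 to complex II, 7 to complex III, 4 to complex IV, 2 to the assembly of complex IV, 9 to complex V and 5 to the V-type ATPase. There was 1 inorganic pyrophosphatase, and 8 members had another description, 6 of them with a gene ontology term for a respiratory complex or the ATP synthase. The members carried 53 different KEGG orthology entries. In all, 61 members were above 0 in every library, and 62 averaged 1 FPKM or more; the exception was MSTRG.43424, a subunit 9-like gene of complex III.

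Oxidative phosphorylation is the last stage of aerobic respiration in the inner mitochondrial membrane. Complexes I and II pass electrons from NADH and succinate to ubiquinone, complex III passes them on to cytochrome c, and complex IV hands them to oxygen. The proton gradient built on the way drives complex V, the ATP synthase. V-type ATPases run the other way, using ATP to acidify organelles, and KEGG draws them in the same pathway.

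RNA was sequenced from pieces of Apostichopus japonicus body wall (AJBW) in 3 groups of 3 libraries: fresh tissue (CON), and tissue kept at 37 °C for 1 h (T_1h) or 3 h (T_3h), the conditions under which the wall softens. The animals weighed 150 ± 20 g, and viscera and heads had been removed. No genotype, strain or age is given, and whether libraries with the same number came from 1 animal is not stated. T_1h replicate 1 was kept out of the fits, a choice taken over from the methods of the study. T_1h therefore had 2 libraries in every test unless 9 libraries are named. p-values measure the spread between these libraries, which may be partly technical.

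The table holds no counts, so the number of reads behind a single value is unknown. Libraries summed to between 336123 and 388082 FPKM, and 12877 to 24915 genes reached an FPKM of 1, with the fewest in T_3h replicate 2. All 29 muscle, 93 connective tissue, 49 cilium, 55 nerve and 31 immune marker genes, found by description, were above 0 in some library, so none of the marker lists was absent. Their summed FPKM in T_3h and CON libraries ranged from 198 to 226 against 180 to 276 for muscle and from 15644 to 34273 against 13985 to 24930 for connective tissue. The ranges were 480.0 to 1052 against 192 to 631 for immune cells, 25.7 to 34.1 against 4.80 to 14.1 for cilia, and 14.3 to 35.0 against 21.0 to 41.2 for nerve. The cilium sums did not overlap between T_3h and CON, and the part of tissue composition in the results below was not tested. In bulk tissue, fewer cells of a type and less RNA per cell cannot be told apart.

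As a set, the oxidative phosphorylation genes were lower after incubation at 37 °C when FPKM was taken as deposited. Their summed FPKM was 2408, 2543 and 2750 in CON, 2181, 1961 and 2155 in T_1h, and 1886, 1519 and 1995 in T_3h. Every T_1h and T_3h library lay below every CON library, while T_1h and T_3h overlapped. The T_3h mean was 1800 ± 250 (SD, n = 3), or 70.1% of the CON mean of 2567 ± 172 (SD, n = 3). Beside its same-numbered CON library, the sum was 90.6%, 77.1% and 78.4% in T_1h replicates 1, 2 and 3, and 78.3%, 59.7% and 72.5% in T_3h. The members took 0.555%, 0.440% and 0.573% of all FPKM in T_3h, against 0.716%, 0.703% and 0.782% in CON.

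This lower level was partly shared by genes outside the pathway, more so at T_3h than at T_1h, and depended on how libraries were scaled. The median log2 fold change of the members, on the log2(FPKM + 1) scale, was -0.37 at T_1h vs. CON and -0.52 at T_3h vs. CON, with 56 and 57 of 63 values negative. Over all tested genes the medians were -0.06 and -0.17, and 60.2% and 71.3% of values were negative. With a minimum mean FPKM of 1, 55 and 57 of 62 members were negative, against 64.4% and 79.7% of genes. Among genes averaging 1 FPKM or more the T_3h median was -0.53 for the 62 members and -0.39 for all. Among those averaging 10 FPKM or more it was -0.53 for the 44 members and -0.54 for all. The T_1h medians were -0.37 for the members and -0.17 for all at 1 FPKM or more. At 10 FPKM or more they were -0.33 and -0.24. When each library was rescaled to a common median ratio, with factors between 0.588 in T_3h replicate 2 and 1.48 in CON replicate 3, the T_3h sums of 2160, 2583 and 1801 overlapped the CON sums of 2579, 2063 and 1853. The members' median was then -0.18 at T_1h and -0.04 at T_3h, with 47 and 38 values negative. That of all tested genes was 0.00 and -0.02, with 50.2% and 54.1% of values negative. Among genes averaging 1 FPKM or more, the scaled T_1h median was -0.19 for the members and -0.02 for all. At 10 FPKM or more it was -0.14 and -0.05. The scaled T_3h medians at 1 FPKM or more were -0.04 for the members and -0.07 for all.

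Few single members passed the thresholds, an unadjusted limma p not above 0.05 together with a log2 fold change of 1 or more in either direction. At T_3h vs. CON 3 of 63 members fell, where 3.67% of the 50973 tested genes did, and none was higher, against 0.473% of all genes. With a minimum mean FPKM of 1, 3 of 62 members fell, against 1761 of 20350 genes. Among genes averaging 10 FPKM or more 1 of 44 members fell, against 472 of 2877 genes. At T_1h vs. CON 1 member was higher and none lower, with backgrounds of 0.398% and 0.473%. A Ballgown-type test, which takes the spread of each gene alone and has the summed expression of each library as a covariate, passed other members. At T_1h none was higher and MSTRG.27165 of complex I was lower (-1.34), against 340 higher and 372 lower of 50973 genes in that test. At an unadjusted p not above 0.05 alone, 8 members were lower and 0 higher, against 1467 and 1285 genes. At T_3h MSTRG.31296 of complex III, cytochrome c1, was the only one to pass, as lower (-1.15), against 428 genes lower. There 7 members were lower and 0 higher at that p alone, against 1150 and 1222 genes. No member passed at T_3h vs. T_1h in limma, where the background was 0.728%. There the limma fit gave 0 members at an unadjusted p not above 0.05, against 786 of 50973 genes. The Ballgown-type test also passed 0 members, against 177 genes, but had 3 at that p, against 1516 genes. In limma 7 members (11.1%) were lower at T_3h vs. CON at an unadjusted p not above 0.05 alone, against 5.41% of all genes. With a minimum mean FPKM of 1 it was 4 of 62 members, against 1929 of 20350 genes. None of these values held after Benjamini-Hochberg adjustment in limma. The lowest adjusted p of a member was 0.703 over all tested genes and 0.401 with the minimum mean FPKM. The count at T_3h changed with single libraries. It was 0 without CON replicate 2 or T_3h replicate 2, and 9 without T_3h replicate 3. Over all genes the lower calls also moved, from 1870 of 50973 to 1114 of 50318 without CON replicate 2. They were 973 of 50599 without T_3h replicate 2 and 3358 of 50394 without T_3h replicate 3.

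Libraries of the same number deviated together, so the replicate number was also fitted as a block, with all 9 libraries and a minimum mean FPKM of 1. At T_3h vs. CON 6 of 62 members (9.68%) then passed the thresholds as lower, against 13.7% of the 20334 genes tested. In that fit 19 members (30.6%) were lower at an unadjusted p not above 0.05, against 25.6% of genes. None had an adjusted p under 0.05 in limma, against 6.35% of genes, and the lowest of a member was 0.0558. When copies of 1 subunit were summed in this fit, 1 sum, ATP synthase subunit g, had an adjusted p of 0.0437 in limma. In that fit 1293 of 20325 genes had an adjusted p under 0.05. The 6 were MSTRG.11794 of complex I, MSTRG.41415 of complex III, both ATP synthase subunit g genes, the V-type ATPase subunit D gene and the inorganic pyrophosphatase. With median-ratio scaling added, none of the 6 passed.

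Counts by the order of the libraries lay further from the background as deposited. In 23 of 62 members (37.1%) all T_3h libraries were below all CON libraries, against 13.6% of genes averaging 1 FPKM or more. Among genes averaging 10 FPKM or more it was 17 of 44 members (38.6%) against 21.8%. No member had all T_3h libraries above all CON libraries, against 1.84% of genes. Within same-numbered pairs, 45 of 62 members (72.6%) were lower in all 3 T_3h libraries, against 40.3% of genes, and 31 of 62 were lower in all 3 T_1h libraries, against 23.5%. With median-ratio scaling these shares came near the background: 3 members (4.84%) were below CON against 7.69% of genes, 3 were above CON against 5.09%, and 15 (24.2%) were lower in all 3 T_3h pairs against 22.9%. The 3 still below were a K03952 gene of complex I (MSTRG.17009), the V-type ATPase subunit D gene and the mitochondrial-processing peptidase subunit beta gene.

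**Figure D1:**
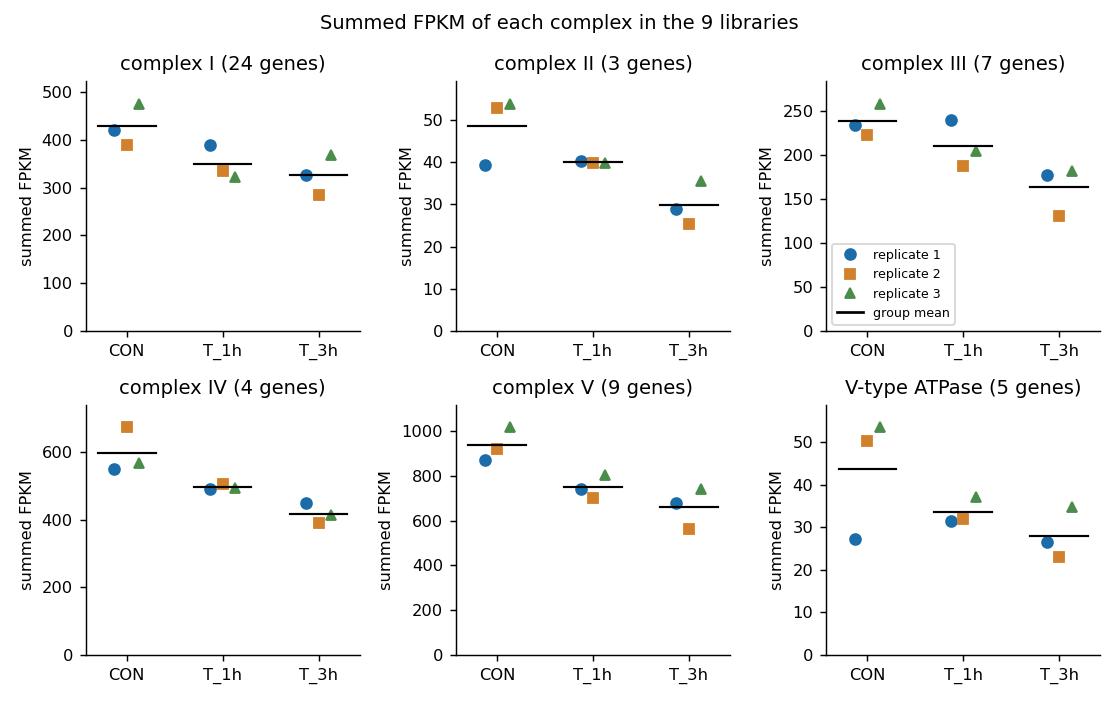
Summed FPKM (y axis, from 0) of the genes of each complex in the CON, T_1h and T_3h libraries; symbols are replicates and black lines group means. In complexes I to V every T_3h library lies below every CON library, while for the V-type ATPase CON replicate 1 (27.3) lies among the T_3h libraries. These are sums as deposited, and with median-ratio scaling (not drawn) T_3h and CON overlap in each complex.

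Complex I, which takes electrons from NADH, had 24 genes with mean levels between 3.92 and 43.8 FPKM. Their summed FPKM was 421, 389 and 475 in CON, 389, 334 and 321 in T_1h, and 326, 284 and 368 in T_3h. All T_3h sums were below all CON sums, and T_3h averaged 326 ± 42.2 FPKM against 428 ± 43.6 FPKM in CON (SD, n = 3 each). The median log2 fold change was -0.43 at T_1h and -0.44 at T_3h, with 21 and 23 of 24 genes negative. With a minimum mean FPKM of 1, 64.4% and 79.7% of all genes tested were negative. With median-ratio scaling the T_3h median of complex I was 0.00 and 12 of 24 were negative, against 54.1% of all tested genes.

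One complex I gene fell at T_3h. MSTRG.11794, assigned to K03954, an accessory subunit, had 17.4, 12.4 and 11.8 FPKM in CON, 9.55, 6.33 and 9.51 in T_1h, and 7.67, 3.99 and 7.87 in T_3h. All 6 incubated libraries were below the lowest CON library. The log2 fold change at T_3h vs. CON was -1.01 (SE 0.39, limma, adjusted p = 0.784), and with the replicate block the adjusted p was 0.0671 in limma. With median-ratio scaling it was -0.55 and did not pass, nor did the gene pass without CON replicate 1 or 2 or T_3h replicate 2.

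The table gives an enzyme number to 7 complex I genes, those of orthology entries for its core subunits, and none to the other 17. The 7 are not all core genes. MSTRG.25405 and MSTRG.39253, of the core entries K03942 and K03941, had another description and were left out. All T_3h libraries were below CON in MSTRG.25405 and not in MSTRG.39253. Both genes of K03934 and both of K03936 are among the 7. The 7 had a median log2 fold change of -0.64 at T_3h, and in 5 of them all T_3h libraries were below CON, against 13.6% of genes averaging 1 FPKM or more. In the 17 the median was -0.44 and 4 were wholly below CON. With scaling the medians were -0.16 and 0.07; the difference was not tested. Both genes of K03934, the largest iron-sulfur subunit, were among the 5. MSTRG.394 had 9.41, 9.67 and 9.40 FPKM in T_3h, against 18.2, 16.7 and 11.8 FPKM in CON. MSTRG.11807 had 7.99, 7.35 and 8.35 FPKM in T_3h, against 16.7, 12.0 and 10.5 FPKM in CON. Their log2 fold changes were -0.64 (SE 0.33) and -0.64 (SE 0.33), and neither passed.

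The most abundant complex I gene overlapped between the groups. MSTRG.44255, assigned to the core entry K03940, had 38.1, 46.7 and 61.2 FPKM in CON, 40.9, 35.4 and 40.9 in T_1h, and 32.5, 44.5 and 54.0 in T_3h. T_1h replicate 2 and T_3h replicate 1 were below all CON libraries, and the log2 fold change was -0.16 (SE 0.36). The single positive value in complex I at T_3h was 0.03 (SE 0.42) for MSTRG.7469, assigned to the accessory entry K03950. It had 36.0, 19.0 and 25.5 FPKM in T_3h, all within the CON range of 18.6 to 41.1. The T_1h libraries of this gene, at 32.3, 28.7 and 23.7 FPKM, were within that range too.

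Complex II, succinate dehydrogenase, is shared with the citrate cycle. Its 3 genes summed to 39.3, 52.7 and 53.8 FPKM in CON, 40.2, 39.8 and 39.7 in T_1h, and 28.9, 25.3 and 35.6 in T_3h. No T_3h sum reached a CON sum, while the T_1h sums were just above the lowest CON sum. With median-ratio scaling the T_3h sums of 33.2, 43.1 and 32.1 overlapped the CON sums of 42.1, 42.8 and 36.2. All 3 genes were negative at T_3h, where 79.7% of genes were with a minimum mean FPKM of 1. Their median was -0.60, and none passed. The most abundant was MSTRG.19125, assigned to K00237, an entry for a membrane anchor subunit. It had 10.1, 10.0 and 14.2 FPKM in T_3h, against 17.2, 25.9 and 19.1 FPKM in CON, with no overlap. Its log2 fold change was -0.80 (SE 0.35, limma, adjusted p = 0.806), past the threshold on p but short of that on fold. With median-ratio scaling it was -0.31.

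Complex III, the cytochrome b-c1 complex, held the gene of lowest fold change in the respiratory complexes and the only member that passed as higher. Its sums were 233, 222 and 258 FPKM in CON, 239, 187 and 205 in T_1h, and 177, 131 and 182 in T_3h. T_3h stood below CON in every library, and T_1h replicate 1 stood within the CON range. With median-ratio scaling the T_3h sums of 203, 222 and 164 overlapped the CON sums of 250, 180 and 174.

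MSTRG.41415, core subunit 2, had 39.1, 46.2 and 37.1 FPKM in CON, 22.2, 21.0 and 24.2 in T_1h, and 19.6, 15.7 and 22.9 in T_3h. Every incubated library was well below the lowest CON library. As deposited, the stage took 89.8% of the gene's spread over the 9 libraries, against 1.38% for the replicate number. It fell at T_3h by 1.05 on the log2 scale (SE 0.32, limma, adjusted p = 0.703). At T_1h the value was -0.82 (SE 0.36) and did not pass. With median-ratio scaling the T_3h value was -0.54 and did not pass, and the call was also lost without CON replicate 2 or T_3h replicate 2.

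The redox subunits of complex III passed the threshold on p and not that on fold. MSTRG.31296, the heme protein cytochrome c1, had 32.2, 33.1 and 35.7 FPKM in T_3h, against 91.4, 62.3 and 50.7 FPKM in CON, a log2 fold change of -0.96 (SE 0.34). MSTRG.43217, the Rieske iron-sulfur subunit, had 7.43, 6.17 and 8.81 FPKM in T_3h, against 15.9, 10.9 and 14.6 FPKM in CON, at -0.80 (SE 0.34). In neither gene did T_3h and CON overlap. MSTRG.40122, a mitochondrial-processing peptidase subunit beta whose orthology entry K00414 is that of core subunit 1, had 25.9, 18.6 and 41.3 FPKM in T_3h. In CON it had 48.2, 54.5 and 63.0 FPKM, and the log2 fold change was -0.99 (SE 0.41), again past the threshold on p alone. With a pseudocount of 0.1 it passed both, at -1.02, and with median-ratio scaling it was -0.48 and did not pass. Under that scaling 1 of the 63 members was lower at T_3h at an unadjusted limma p not above 0.05, against 1610 of 50973 genes.

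Subunits 6 and 7 overlapped between T_3h and CON. MSTRG.15837, the acidic hinge subunit 6 and the most abundant gene of the complex, had 55.6, 64.5 and 109 FPKM in CON, 113, 67.7 and 72.5 in T_1h, and 73.4, 39.99 and 66.6 in T_3h. T_3h replicate 2 was below the CON range and T_1h replicate 1 above it, and the value at T_3h was -0.33 (SE 0.40). MSTRG.18822, subunit 7, had 43.4, 32.5 and 41.3 FPKM in T_3h, against 30.6, 34.8 and 45.7 FPKM in CON, at 0.08 (SE 0.33). A ratio within a library does not depend on scaling, and the FPKM of subunit 2, cytochrome c1 and Rieske over that of the 4 small subunit genes was 1.68, 1.16 and 0.659 in CON, 0.474, 0.579 and 0.664 in T_1h, and 0.501, 0.725 and 0.590 in T_3h. CON replicate 3 lay within the incubated libraries, so the groups overlapped in this ratio, which was chosen after the values were seen.

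MSTRG.22546, a subunit 9-like gene, was higher at T_1h. It had 0.682, 3.80 and 1.23 FPKM in CON, 1.26, 10.4 and 4.59 in T_1h, and 1.40, 2.93 and 6.21 in T_3h. The 2 fitted T_1h libraries exceeded all CON libraries, but the left-out T_1h replicate 1 was within the CON range. The log2 fold change at T_1h vs. CON was 1.61 (SE 0.65, limma, adjusted p = 1), and 1.71 with median-ratio scaling. With all 9 libraries and no block it was 1.00 and did not pass, and with the block and 9 libraries it was 1.00 (SE 0.42) and passed. The Ballgown-type test, and leaving out CON replicate 1 or 3, T_1h replicate 2 or T_3h replicate 2, also ended the call. At T_3h it was 0.64 (SE 0.58).

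**Figure D2:**
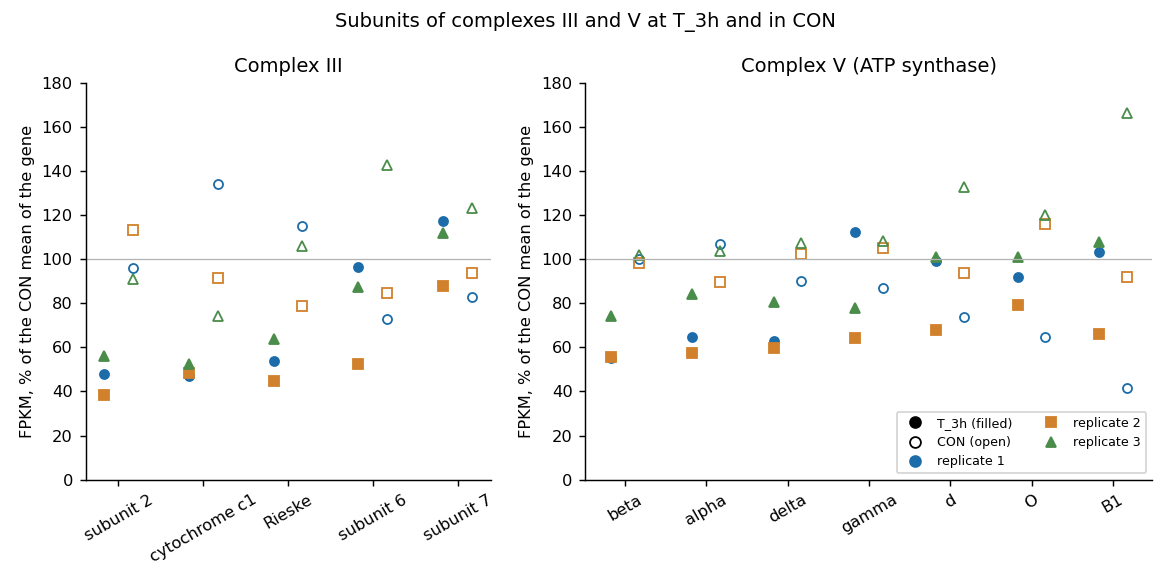
FPKM of single subunit genes of complex III (left) and complex V (right) in T_3h (filled) and CON (open) libraries, as a percentage of the CON mean of the same gene; symbols are replicates. The genes of subunit 9 of complex III and subunit g of complex V are not drawn. Subunit 2, cytochrome c1, Rieske, beta, alpha and delta show no overlap between T_3h and CON, while subunits 6, 7, gamma, d, O and B1 overlap.

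Complex IV, cytochrome c oxidase, held 4 of the most abundant members, at mean levels from 94.9 to 147 FPKM. The sums were 549, 672 and 566 FPKM in CON, 491, 505 and 492 in T_1h, and 449, 389 and 414 in T_3h. All T_1h and T_3h sums were below all CON sums. The median log2 fold change was -0.50 at T_3h, and none passed. All 4 genes were lower in every T_3h pair, against 40.3% of genes averaging 1 FPKM or more. With median-ratio scaling the median was 0.03.

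Subunit 4 isoform 1 (MSTRG.31295), the most abundant, had 171, 191 and 151 FPKM in CON, 140, 149 and 148 in T_1h, and 139, 113 and 123 in T_3h. All incubated libraries were below CON, yet T_1h replicates 2 and 3 were close to the lowest CON library. The value at T_3h was -0.45 (SE 0.30) and did not pass. Subunit 5B (MSTRG.39029), which binds zinc, had 144, 172 and 160 FPKM in CON, 128, 117 and 143 in T_1h, and 91.0, 60.7 and 128 in T_3h. T_3h was below CON throughout, at -0.82 (SE 0.37), which passed neither threshold.

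Of the assembly proteins, COX15 acts in the making of heme A. Its gene (MSTRG.17265) had 2.46, 4.67 and 6.80 FPKM in CON, 1.75, 2.32 and 1.83 in T_1h, and 1.43, 1.27 and 4.52 in T_3h. All T_1h libraries were below CON, while T_3h replicate 3 was among the CON values. The log2 fold changes were -0.81 (SE 0.55) at T_1h and -0.78 (SE 0.49) at T_3h, and neither passed. With the replicate block on 8 libraries T_1h passed at -1.05 (limma, adjusted p = 0.915), but not with 9 libraries. COX11, which delivers copper to the oxidase, had at most 2.42 FPKM in any library, at -0.28 (SE 0.40) at T_3h.

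Complex V, the ATP synthase, summed to 871, 922 and 1016 FPKM in CON. The sums were 741, 703 and 803 in T_1h and 681, 563 and 739 in T_3h, each group wholly below CON. With median-ratio scaling the T_3h sums of 780, 958 and 667 overlapped the CON sums of 933, 748 and 685. The catalytic subunit beta (MSTRG.7216) was the most abundant of all members, with 265, 260 and 271 FPKM in CON, 180, 162 and 223 in T_1h, and 146, 148 and 197 in T_3h. The CON libraries agreed closely and all incubated libraries were below them. The log2 fold change at T_3h was -0.71 (SE 0.31), short of both thresholds, and -0.18 with median-ratio scaling.

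Subunit alpha (MSTRG.12246), the partner of beta in the catalytic head, had 107, 95.2 and 140 FPKM in T_3h, against 177, 149 and 172 FPKM in CON. Subunit delta (MSTRG.15838), of the central stalk, had 33.5, 31.7 and 42.7 FPKM in T_3h, against 47.9, 54.4 and 56.9 FPKM in CON. Neither gene overlapped between the groups, with log2 fold changes of -0.55 (SE 0.34) and -0.56 (SE 0.31), and neither passed. The gamma, d and O subunits overlapped CON, at -0.27, -0.14 and -0.09. Subunit B1 of the peripheral stalk (MSTRG.13802) had 69.2, 44.5 and 72.4 FPKM in T_3h, inside the CON values of 27.9, 61.8 and 112. Its log2 fold change of 0.06 (SE 0.52) was the highest of complex V. The ratio of alpha and beta to the other 7 genes was 0.593, 0.758 and 0.836 in T_3h, against 1.03, 0.798 and 0.771 in CON, and the groups overlapped.

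Subunit g, which sits in the membrane part of the synthase, was represented by 2 genes that differed in level between replicate numbers. MSTRG.43186 had 40.9, 69.9 and 91.5 FPKM in CON, 21.0, 37.8 and 68.6 in T_1h, and 18.6, 35.9 and 42.7 in T_3h. MSTRG.13856 had 128, 62.1 and 2.61 FPKM in CON, 67.8, 33.0 and 1.68 in T_1h, and 55.1, 27.9 and 1.16 in T_3h. In both genes every incubated library was below its same-numbered CON library, although the groups overlapped. Without the block the T_3h values were -1.04 (SE 0.48) and -1.02 (SE 1.67) in limma, and neither passed. With the block, 9 libraries and the minimum mean FPKM they were -1.04 (SE 0.28, adjusted p = 0.0558) and -1.02 (SE 0.28, adjusted p = 0.0585) in limma, and both passed the thresholds. The 2 genes together summed to 73.6, 63.7 and 43.9 FPKM in T_3h, against 168, 132 and 94.1 FPKM in CON. This sum, an alternative added after the data were seen, did not overlap and gave -1.10 (SE 0.37, limma, adjusted p = 0.736) without the block, past both thresholds.

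Among the 5 V-type ATPase genes, the subunit D gene fell. MSTRG.12163, a rotor stalk subunit, had 3.61, 4.62 and 5.64 FPKM in CON, 2.78, 2.67 and 3.59 in T_1h, and 2.07, 0.873 and 2.65 in T_3h. All incubated libraries were below the lowest CON library, although T_1h replicate 3 was close to it. The value at T_3h was -1.01 (SE 0.39, limma, adjusted p = 0.790), with the block the adjusted p was 0.0616, and with median-ratio scaling it was -0.66 and did not pass. It also failed to pass without CON replicate 2 or 3, or T_3h replicate 1 or 2. The most abundant, subunit F (MSTRG.38532), had 8.18, 14.3 and 15.6 FPKM in T_3h, against 9.58, 24.5 and 24.0 FPKM in CON. It overlapped between the groups, at -0.51 (SE 0.46). The 5 genes summed to 26.6, 22.9 and 34.8 FPKM in T_3h, against 27.3, 50.4 and 53.5 FPKM in CON, and the groups overlapped.

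The 11 genes kept apart for their lysosome label, mostly V-type ATPase subunits, had a median of -0.77 at T_3h as deposited and -0.42 with median-ratio scaling. One of them fell: subunit d 1 (MSTRG.42114), also of the rotor, had 6.67, 3.53 and 12.6 FPKM in T_3h, against 15.6, 15.1 and 21.9 FPKM in CON. The groups did not overlap and the log2 fold change was -1.23 (SE 0.49, limma, adjusted p = 0.793), or -0.77 with scaling, which did not pass. With the block, 9 libraries and the minimum mean FPKM its adjusted p was 0.0478. This gene was named after its values were seen.

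The inorganic pyrophosphatase (MSTRG.42911), which splits the pyrophosphate released in biosynthesis, had 8.96, 17.6 and 22.7 FPKM in CON, 9.56, 8.62 and 16.6 in T_1h, and 7.06, 2.16 and 14.3 in T_3h. The groups overlapped, but each T_3h library was below its same-numbered CON library, most in replicate 2 at 12.3%. The value of -1.16 (SE 0.63) did not pass in limma without the block and passed with it (SE 0.42, adjusted p = 0.112). Among the members of other description, MSTRG.2767, described as GK10942 with an ATP synthase term, was the most abundant. It had 69.9, 28.8 and 47.0 FPKM in T_3h, against 89.2, 61.5 and 66.7 FPKM in CON, at -0.64 (SE 0.40), with T_3h replicate 1 inside the CON range.

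**Figure D3:**
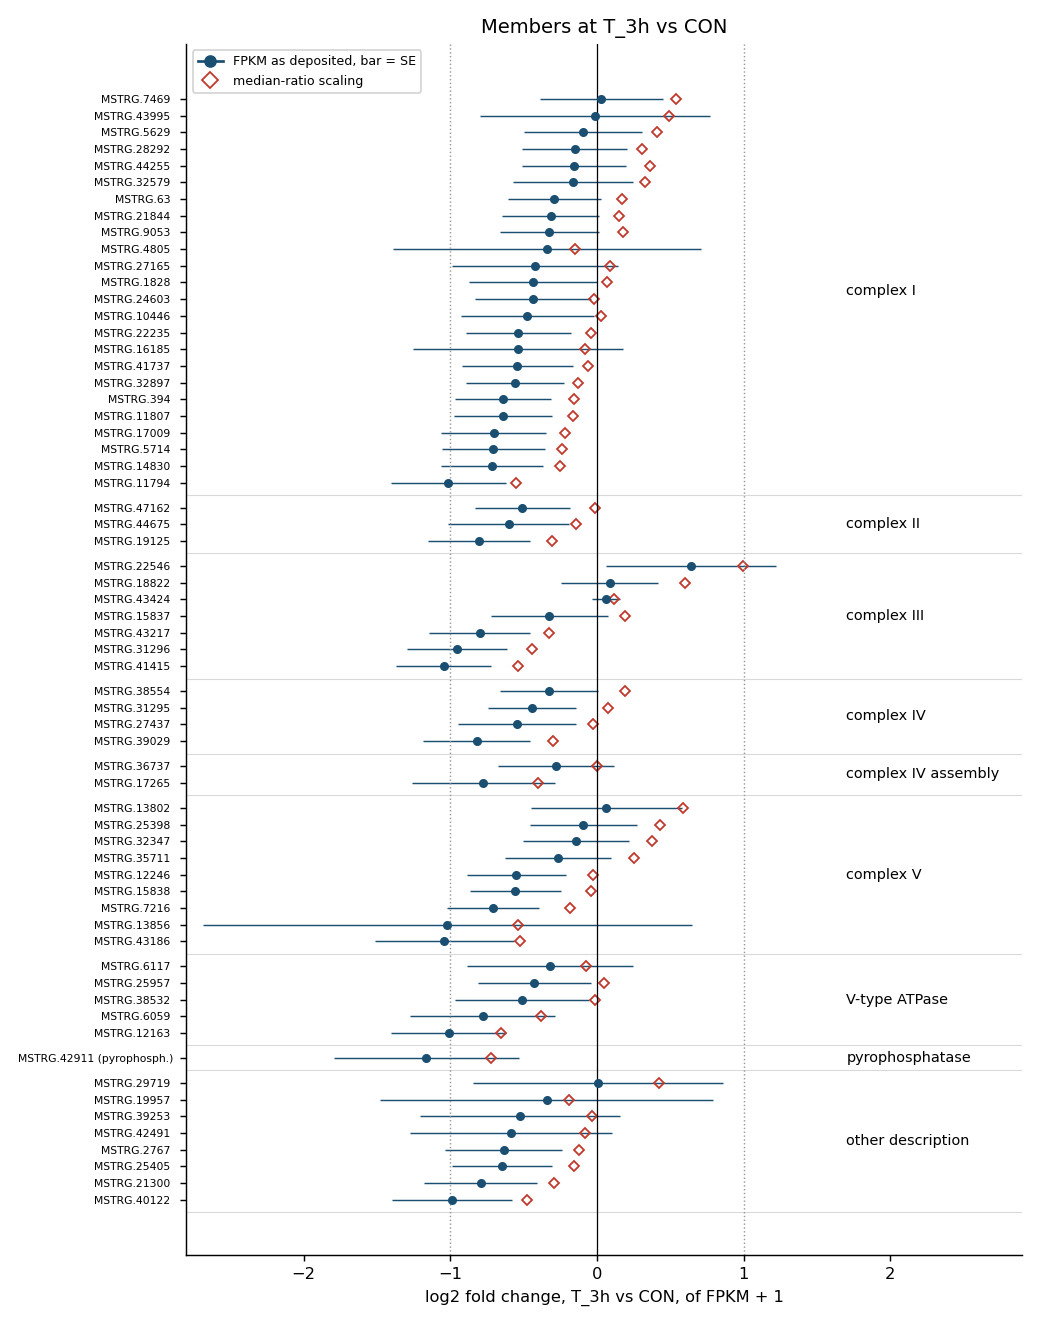
Log2 fold change at T_3h vs. CON (x axis) of all 63 members, grouped by complex and sorted within it; circles with standard error bars are FPKM as deposited, diamonds the values after median-ratio scaling, and dotted lines mark the fold threshold of 1 in either direction. As deposited 57 values are negative, and after scaling 38, against 71.3% and 54.1% of all tested genes.

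Members that share an orthology entry are separate gene models of the same subunit, and 10 entries had 2 members each. Which of the 2 carried the expression followed the replicate number more than the stage. MSTRG.43186 made up 24.3%, 52.9% and 97.2% of the subunit g FPKM in CON replicates 1, 2 and 3. Its share was 23.7%, 53.4% and 97.6% in T_1h and 25.2%, 56.3% and 97.4% in T_3h. Within a number the share moved by at most 3.34 points, and between the means of the numbers by 73.0 points.

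For K03939, an accessory entry of complex I, MSTRG.43995 made up 19.8%, 87.4% and 89.0% in CON, 18.8%, 89.4% and 89.6% in T_1h, and 18.6%, 91.0% and 85.7% in T_3h. Replicate 1 was apart at every stage. The other copy, MSTRG.29719, had 25.3, 2.66 and 5.02 FPKM in T_3h, against 22.5, 3.26 and 4.69 FPKM in CON, at 0.01 (SE 0.85). The 2 copies together had 31.0, 29.5 and 35.2 FPKM in T_3h, against 28.1, 25.8 and 42.7 FPKM in CON. For V-type ATPase subunit F, MSTRG.19957 was listed at 0 in all 3 libraries of number 2 and had between 4.15 and 10.4 FPKM in the other 6. For the complex I entry K03936, MSTRG.4805 had 0.279, 0.0965 and 0.0781 FPKM in the CON, T_1h and T_3h libraries of number 2, and at least 3.77 in all others.

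In 9 of the 10 entries the range between numbers was larger than the largest range within a number, the exception being subunit 9 of complex III, and in 3 it was over 50 points. Near-identical models can share reads, so how the fragments were divided between copies is uncertain, and the sums carry the comparison between stages. Over the members, as deposited, the replicate number took a median of 33.8% of a gene's spread in log2(FPKM + 1) and the stage 29.2%. Over all 20334 genes averaging 1 FPKM or more these were 52.4% and 16.4%. The number took more than the stage in 33 of 62 members (53.2%) and in 71.9% of those genes. The median share of the stage was larger than that of the number in complexes II (65.6% and 28.1%), III (52.4% and 26.1%) and IV (46.1% and 31.3%). It was smaller in complexes I (20.4% and 33.2%) and V (18.5% and 26.8%). These shares were not computed with median-ratio scaling and were not tested. Stage and number each take some part of the spread even without any effect.

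**Figure D4:**
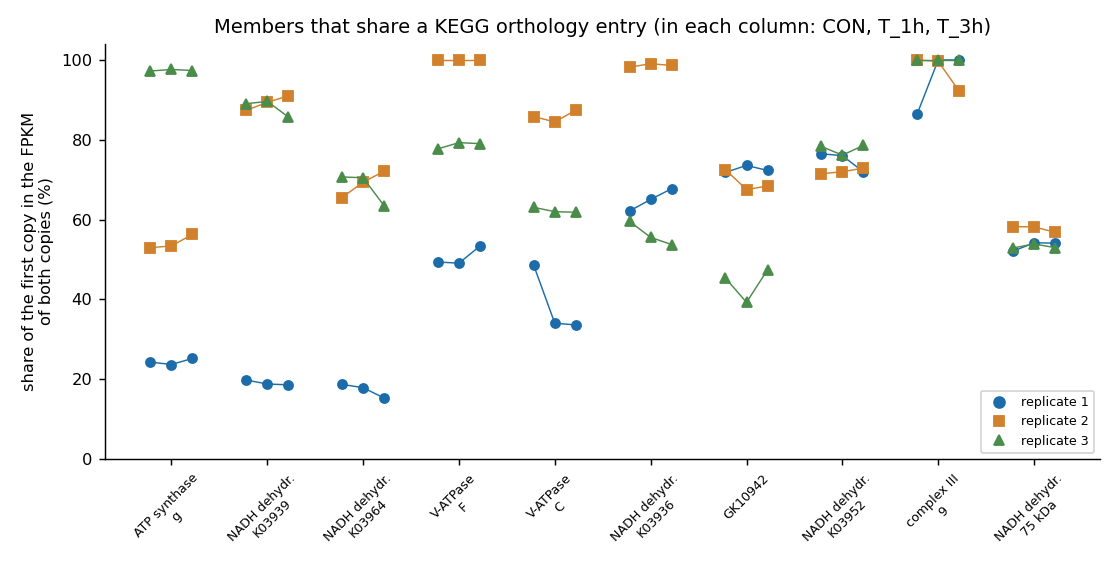
Share of the first copy (y axis, percent) in the FPKM of both members of each of the 10 shared orthology entries, in CON, T_1h and T_3h from left to right within a column; symbols and lines are replicate numbers. For subunit g the lines of the numbers lie near 24.4%, 54.2% and 97.4% and hardly move with the stage.

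Other genes of energy metabolism, listed by description, are given by counts and medians at T_3h vs. CON. Of 27 further citrate cycle genes 5 fell, where 3.67% of all tested genes did, and none was higher. Of the 27, 24 averaged 1 FPKM or more, a level at which 1750 of 20319 tested genes fell. Among tested genes averaging 10 FPKM or more 472 of 2877 fell. The citrate cycle median was -0.69 as deposited and -0.27 with median-ratio scaling. The 5, named after their values were seen, were the succinyltransferase of 2-oxoglutarate dehydrogenase (MSTRG.1769, -1.47, SE 0.46), dihydrolipoyl dehydrogenase (MSTRG.5511, -1.34, SE 0.50), an isocitrate dehydrogenase (MSTRG.5078, -1.17, SE 0.43), a succinyl-CoA ligase (MSTRG.1829, -1.15, SE 0.40) and pyruvate carboxylase (MSTRG.18321, -1.04, SE 0.40). With scaling the succinyltransferase gene still passed, at -1.11, and the other 4 did not. None of the 5 had an adjusted p under 0.05 in limma, with or without the block, where the lowest was 0.0542. The 4 mitochondrial carrier and pore genes, with the ADP/ATP translocase, phosphate carrier and anion channel, had a median of -0.57 and none passed.

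The 12 subunit genes without the pathway label had a median of -0.22, and the 14 tested electron carriers and assembly factors one of -0.07; none passed. Mitochondrial ribosomal proteins had a median of -0.12 over 80 genes with 1 lower (39S L22, MSTRG.46916), and cytosolic ribosomal proteins one of 0.07 over 69 genes with 1 higher (60S L35, MSTRG.23953). With median-ratio scaling these 4 medians were 0.18, 0.17, 0.18 and 0.59, all positive, while those of the oxidative phosphorylation members and the citrate cycle were -0.04 and -0.27. No gene described as a mitochondrially encoded subunit was found in the table.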

How the data were processed

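Members and lists were chosen with earlier results of these data known. The authors removed adaptors and bases of quality under 20, aligned reads to the A. japonicus genome with HISAT, assembled transcripts with StringTie and deposited gene-level FPKM from StringTie and Ballgown; samples needed an RNA integrity number of at least 7. The submitters' processing notes list Bowtie 0.12.2, HISAT2 2.0, StringTie 1.3.0 and the build mm8, a mouse build whose role is not given. The study tabulates reads per library and reads mapped to more than 1 place. By its table the share of the latter was higher in T_3h replicates 1 and 2 than in any other library. Its part in the FPKM values was not tested. How such reads were divided between genes and whether strand was used are not given in the sources used here.

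Here log2(FPKM + 1) was fitted in limma 3.58.1 (R 4.3.3) for genes above 0 in at least 2 fitted libraries. It was 1 model of the 3 groups with a trended prior, on 8 libraries. The code was also run on simulated data with independent noise below the observed spread and changes larger than those of the members. That run does not show how the fit performs on these libraries. Libraries and thresholds follow the study's methods. Backgrounds over libraries used genes averaging 1 FPKM or more. Alternatives were all 9 libraries, median-ratio and upper-quartile (0.75 quantile) scaling, a Ballgown-type test, a replicate block, a pseudocount of 0.1, a mean FPKM of 1 as minimum, summed copies and leaving out each library. The deviations of libraries from their group means correlated between libraries of the same number, at 0.593 to 0.721 over 9 pairs. The mean over 18 other pairs was -0.33, which largely follows from the centring on group means and is no separate evidence. The labels give the numbers only. Named genes were every member past the thresholds, and in each complex the most abundant member and the largest rise and fall at T_3h; others were chosen after their values were seen. No member matched the RefSeq gene table, so no sequence or position is given.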

Additional observations from a re-analysis of the deposited data

Results flagged for a closer look

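T_1h replicate 1, the library outside the fits, had 9 members (14.3%) above the highest CON library, close to the 14.1% of all genes averaging 1 FPKM or more. It was listed because it is data outside the main comparisons with values above the control samples. In T_1h replicates 2 and 3 it was 1 and 3 members, against 10.7% and 10.0% of genes, and in T_3h replicates 1, 2 and 3 it was 2, 1 and 1 members, against 12.6%, 5.43% and 11.5% of genes. Below the lowest CON library, T_1h replicate 1 had 22 members (34.9%) against 23.1% of genes, and T_1h replicates 2 and 3 had 38 (60.3%) against 29.1% and 31 (49.2%) against 24.9%.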

How the results depend on the processing

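With median-ratio scaling the members past the thresholds were 0 at T_3h vs. CON, and the members' medians were -0.18 at T_1h vs. CON, -0.042 at T_3h vs. CON and 0.10 at T_3h vs. T_1h, a change of sign from -0.18. With upper-quartile scaling they were 0, -0.13, -0.042 and 0.030. With the replicate block, 9 libraries, a minimum mean FPKM of 1 and median-ratio scaling they were 0, -0.11, -0.040 and 0.087. In the order given, 1430 and 1419 of 50973 genes and 1941 of 19677 genes passed at T_3h vs. CON. With the Ballgown-type test 1 member passed at T_3h, against 785 of 50973 genes. The medians were then -0.26 at T_3h vs. CON and -0.025 at T_3h vs. T_1h. With all 9 libraries 0 members passed at T_1h, against 273 of 51453 genes. With the replicate block the counts were 2 at T_1h and 6 at T_3h, against 791 and 3173 of 50973 genes. The T_3h count was also 6 with 9 libraries, against 3213 of 51453 genes. With the minimum mean FPKM added it was again 6, against 3160 of 20334 genes. With 9 libraries the block gave 1 member at T_1h, against 0 without it, where 494 and 273 of 51453 genes passed. At T_3h vs. T_1h the block changed no count of members. With copies summed, the block, 9 libraries and the minimum mean FPKM, 0 of 53 passed at T_1h and 5 at T_3h. Over all genes 522 and 3159 of 20325 passed. Of the 5, 1 sum, subunit g, had an adjusted p of 0.0437 in limma, where 1293 genes had one under 0.05. Leaving out 1 library at a time gave 0 to 1 members at T_1h, 0 to 9 at T_3h and 0 at T_3h vs. T_1h. At T_3h it was 9 without T_3h replicate 3, where 3358 of 50394 genes were called lower. It was 0 without CON replicate 2 or T_3h replicate 2, where 1114 of 50318 and 973 of 50599 genes were. The medians then lay between -0.42 and -0.27 at T_1h, -0.63 and -0.39 at T_3h, and -0.29 and -0.026 at T_3h vs. T_1h, the last without T_3h replicate 2. The cause of these differences was not tested. Of 190 values of named members at T_3h vs. CON under settings that left out no further library, 171 kept their side of the thresholds. Another 7 newly passed and 12 no longer did. The 12 all belonged to the 3 members that had passed, and most of the 171 to members that had not. Without counts, the sampling error of members of low level is unknown.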
